A study of Mus musculus with 17 samples.

Results

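A group of 44 genes had a lower level in leukaemic than in preleukaemic erythroid blasts of 2 mouse models of Spi1-driven erythroleukaemia. They were chosen by their measured values out of 22088 genes that the RNA-seq count tables of both models share. The rule asked for every leukaemic library to lie below every preleukaemic one in both models, for a leukaemic mean of at most 0.5 times the preleukaemic mean in each, and for a preleukaemic mean of at least 5 CPM (the count of a gene scaled to a library total of 1000000) in each. The differences between leukaemic and preleukaemic cells given below for these genes are therefore a description of what chose them, and no test is attached to them. Of the 44, 43 are protein coding and 1 (Gm37527) is a gene model of the class TEC, which still awaits experimental support in the annotation.

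All animals carried the Spi1 transgene TgSpi1, which according to the study is expressed constitutively. In model 1 (strain DBA2JxFVB/N), the leukaemic mice leukemic_26, leukemic_28 and leukemic_39 and the preleukaemic mice preleukemic_77, preleukemic_224 and preleukemic_40 were TgSpi1FA-/-, that is, without functional Fanca, and 4 further preleukaemic mice (preleukemic_445, preleukemic_479, preleukemic_451 and preleukemic_138) were TgSpi1FA+/+. In model 2 (strain DBA2J), in which leukaemia followed serial blood transfusions, the leukaemic mice leukemic_601, leukemic_606 and leukemic_921 and the preleukaemic mice preleukemic_633, preleukemic_663, preleukemic_812 and preleukemic_837 were all TgSpi1FA+/+. Blasts of each mouse were kept in culture with erythropoietin (EPO), and each gave 1 library. Preleukaemic blasts are those that need EPO to grow and are not tumorigenic, and leukaemic blasts are those that do not need it. Libraries are called by the end of their titles (leukemic_26, preleukemic_837), and the figures show the number alone. The RNA input was 400 ng in model 1 and 300 ng in model 2, fragmented for 8 and 2 min, so that strain, Fanca and library protocol cannot be told apart between the models, and all comparisons were made within a model. Each library is a culture from 1 mouse, and a lower level per cell and a smaller share of the cells that express a gene cannot be told apart in such bulk samples.

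Erythroid cells mature from EPO-dependent progenitors to enucleated red cells. On the way they build a membrane skeleton, fill with haemoglobin, leave the cell cycle and clear their mitochondria. EPO and the stem cell factor receptor KIT signal through JAK2, STAT5, PI3 kinase and RAS, with adaptors such as GAB2 passing the signal on and phosphatases such as SHIP1 limiting it. Spi1 encodes PU.1, a transcription factor of the ETS family that is high in myeloid and B cells and whose forced expression in erythroid precursors halts their maturation.

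Total counts were between 29964576 and 40514205 per library. Fanca was at 0.594 to 2.34 CPM in the TgSpi1FA-/- libraries and at 27.5 to 84.4 CPM in all others, as the labels say. The mice preleukemic_77, preleukemic_224 and preleukemic_40 are called leukaemic in the column names and in a part of their labels but preleukaemic in their titles and in the stage given for the cells, and the latter was used. Between preleukemic_445 and preleukemic_479, the chi-square over its degrees of freedom was only 9.18, whereas other pairs within a group of model 1 gave 126 to 411. These libraries differed by more than sampling noise and were kept as 2, and as 1 in an alternative. Erythroid markers were present in all groups: Gata1 was between 212 and 556 CPM and Tfrc between 1255 and 2410.0 CPM in the 17 libraries. Spi1 itself had 638, 225 and 4.01 CPM in the leukaemic libraries leukemic_26, leukemic_28 and leukemic_39 against 648 to 770.4 CPM in the TgSpi1FA-/- preleukaemic ones, so that leukemic_39 had almost none of it. In model 2 it had 105 to 179.8 CPM in leukaemic and 211 to 349.9 CPM in preleukaemic libraries. Spi1 was looked at after its values had been seen, and it is no member because its leukaemic mean in model 2 was 0.567 times the preleukaemic mean.

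Both tables held 8686 genes with a preleukaemic mean of at least 5 CPM in both models. Of these, 631 (7.26%) met the rule in model 1 and 370 (4.26%) in model 2. The 44 that met it in both are 6.97% of the former and 11.9% of the latter. With leukaemic and preleukaemic exchanged, 9 genes met the rule. At the limits, Crtc3 was the nearest gene inside the ratio of model 1 (0.499) and Bcas3 the nearest outside it (0.516). In model 2, Usp24 was inside (0.496) and the erythroid repressor gene Zbtb7a outside (0.507). For the lower of both preleukaemic means, Gm37527 lay inside at 5.71 CPM and Gm26616 outside at 2.56 CPM.

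**Figure D1:**
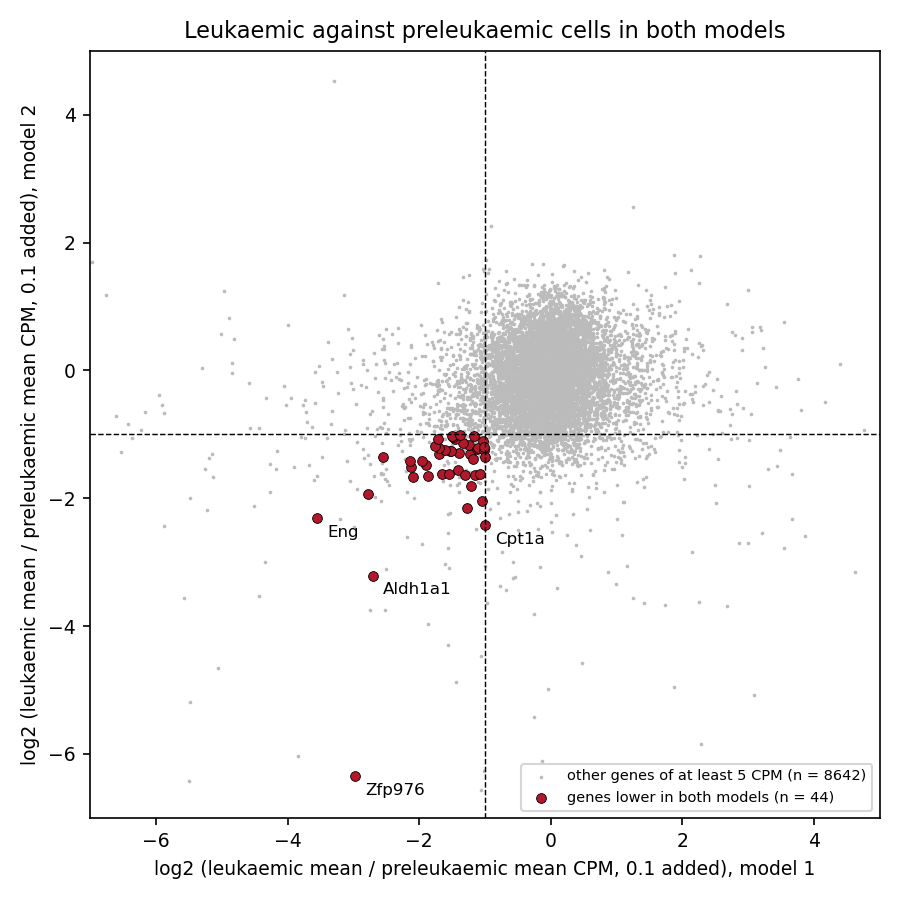
Log2 ratio of the mean CPM of leukaemic over preleukaemic libraries (0.1 CPM added to both means) in model 1 (x axis) and model 2 (y axis) for genes of at least 5 CPM in both models. The 44 genes (red) fill the corner below the dashed lines at a ratio of 0.5, most of them close to the lines, while grey points are the other genes, of which 5 lie outside the axes.

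The median log2 ratio of leukaemic to preleukaemic means (0.1 CPM added) over the 44 genes was −1.47 in model 1, with a range from −3.55 (Eng) to −1.0005 (Crtc3). In model 2 it was −1.35, with a range from −6.34 (Zfp976) to −1.01 (Usp24). Over the 8686 genes of at least 5 CPM the medians were −0.05 and −0.13. In model 1, 8 genes had a leukaemic mean at least 4-fold below the preleukaemic one, and in model 2, 6 genes. For 19 genes the difference was less than 3-fold in both models. A ratio of at most 0.25 in both models was met by 3 genes, Eng, Aldh1a1 and Zfp976. The difference was larger in model 1 for 25 of the 44.

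Single mice weighed on which genes met the rule. The order of libraries given below is read from the values that chose the genes, and the choice alone can shift it. These counts are therefore a description and not comparable with the shares of unselected genes. The preleukaemic library preleukemic_837 was the highest of the 4 in model 2 for 32 of the 44 genes, compared with 33.1% of the genes of at least 5 CPM. Without preleukemic_837, 22 of the 44 met the rule and the median log2 ratio of model 2 was −1.06. The leukaemic library leukemic_39 was the lowest of the 3 in model 1 for 32 of the 44, compared with 39.4% of those genes. Without leukemic_39, 32 of the 44 met the rule and the median log2 ratio of model 1 was −1.21. Leaving out any other of the 13 mice kept between 39 and 44 of them. With any 1 of the 13 left out, 11 genes met the rule each time: Aldh1a1, Eng, Plvap, Ccdc171, Slc25a21, Eda, Cldn13, Ocrl, Inpp5d, Taok3 and Sipa1l3. The genes that no longer met it without leukemic_39 were Rsu1, Gab2, Hk1, Nipal3, Myh9, Hnrnpul1, Wipf1, Dnm2, Cat, Rhog, Cpt1a and Crtc3. Without preleukemic_837 they included Pik3cg, Klf3, Ucp2, Vwa8, Wipf1, Zfp976 and Zfp839, and without preleukemic_40 they included Dapk2, Hk1, Cpt1a and Crtc3. With medians in place of means, 26 of the 44 met it.

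**Figure D2:**
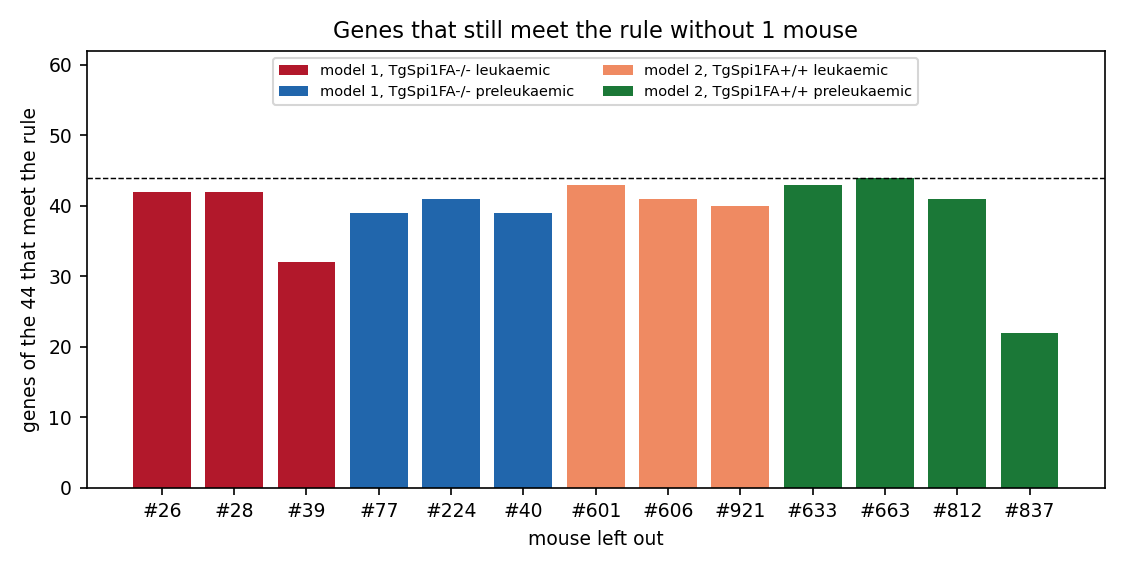
Number of the 44 genes (y axis) that still met the rule when 1 mouse (x axis) was left out, with bars coloured by the group of that mouse and a dashed line at 44. The bar without preleukemic_837 stands at 22 and that without leukemic_39 at 32, while the other 11 lie between 39 and 44.

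In what follows, values of model 1 are in the order leukemic_26, leukemic_28 and leukemic_39 for leukaemic and preleukemic_77, preleukemic_224 and preleukemic_40 for TgSpi1FA-/- preleukaemic libraries. Those of model 2 are in the order leukemic_601, leukemic_606 and leukemic_921 for leukaemic and preleukemic_633, preleukemic_663, preleukemic_812 and preleukemic_837 for preleukaemic libraries. A fold is the ratio of the preleukaemic to the leukaemic mean.

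Some of the genes are known from the red cell. Cldn13, a claudin gene that mouse erythroid cells express, had 21.8, 24.8 and 11.6 CPM in the leukaemic and 74.4, 59.8 and 92.7 CPM in the preleukaemic libraries of model 1, and 48.6, 39.7 and 41.7 CPM in the leukaemic and 132, 141, 59.8 and 130.0 CPM in the preleukaemic libraries of model 2 (3.90-fold and 2.67-fold lower). In model 2 its preleukaemic level was uneven, with preleukemic_812 far below the other 3 libraries. Klf3, a repressor of the Krüppel-like family that KLF1 activates in erythroid cells, had 92.9, 71.1 and 67.7 CPM in the leukaemic and 175, 267 and 143 CPM in the preleukaemic libraries of model 1. Model 2 gave 39.7, 31.4 and 76.4 CPM in leukaemic and 84.8, 93.8, 83.8 and 172 CPM in preleukaemic libraries, where leukemic_921 lay just under preleukemic_812 and preleukemic_837 stood above the others (2.52-fold and 2.21-fold lower). Hk1, the hexokinase of red cells, which opens glycolysis, had 653, 519 and 246 CPM in the leukaemic and 929.9, 909 and 1247 CPM in the preleukaemic libraries of model 1 (2.175-fold lower). In model 2 there were 309, 234 and 238 against 694, 545, 437 and 768 CPM (2.34-fold lower), and neither model had an overlap. Cat, which encodes catalase, an enzyme that breaks down hydrogen peroxide and is abundant in red cells, had means of 159.9 ± 49.4 CPM (SD, n = 3) in leukaemic and 325 ± 33.6 CPM (SD, n = 3) in preleukaemic cells of model 1 and of 123 ± 23.2 CPM (SD, n = 3) and 283 ± 106 CPM (SD, n = 4) in model 2.

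Per kb of exon sequence, the preleukaemic means of model 1 were high for Ucp2 (161 CPM per kb), Ankrd13a (139), Rhog (133), Cat (124) and Hk1 (121). The median over the 44 genes on this scale was 16.2 CPM per kb, compared with 13.2 over the genes of at least 5 CPM. In model 2 the medians were 10.5 and 11.2 CPM per kb.

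Several of the genes act on cytokine signals and on inositol lipids. Gab2, an adaptor that binds PI3 kinase and SHP2 below cytokine receptors and KIT, had 108, 57.6 and 28.01 CPM in the leukaemic and 163, 196 and 112 CPM in the preleukaemic libraries of model 1, where leukemic_26 and preleukemic_40 almost met. Values of model 2 were 69.8, 55.1 and 60.0 CPM in leukaemic and 153, 93.1, 693 and 161 CPM in preleukaemic libraries, and the mean fold of 4.46 rested in part on preleukemic_812. Inpp5d encodes SHIP1, a phosphatase that removes the lipid product of PI3 kinase. It had 137.6, 94.4 and 1.76 CPM in the leukaemic and 216, 203 and 337 CPM in the preleukaemic libraries of model 1, with leukemic_39 far below leukemic_26 and leukemic_28. In model 2 the values were 102, 96.6 and 64.2 against 217, 199, 127 and 327 CPM (3.24-fold and 2.49-fold lower). Pik3cg, the catalytic subunit gamma of PI3 kinase, had 56.0, 21.2 and 10.8 CPM in the leukaemic and 96.8, 118 and 114 CPM in the preleukaemic libraries of model 1 (3.73-fold lower). In model 2 it had 24.3, 23.4 and 25.5 CPM against 46.3, 56.9, 43.1 and 127 CPM, with tight leukaemic values and preleukemic_837 high (2.80-fold lower). Ocrl, another phosphatase of inositol lipids, was 2.67-fold and 2.98-fold lower. In model 2 its leukaemic libraries had 13.5, 10.4 and 3.71 CPM and its preleukaemic ones 15.9, 16.4, 40.6 and 36.7 CPM.

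Kinases and surface proteins followed. Dapk2, a calmodulin-regulated kinase of the death-associated family, had 13.7, 14.9 and 6.52 CPM in the leukaemic and 22.7, 22.3 and 84.1 CPM in the preleukaemic libraries of model 1 and 9.86, 6.61 and 16.8 CPM in the leukaemic and 38.5, 29.1, 28.7 and 43.8 CPM in the preleukaemic libraries of model 2. The fold was 3.68 and 3.16, but preleukemic_40 stood far above the other preleukaemic libraries of model 1, and without it Dapk2 no longer met the rule. Taok3, a kinase of the STE20 family, was 2.63-fold and 2.45-fold lower, with 251, 165 and 92.5 CPM in the leukaemic libraries of model 1 and 109, 62.3 and 94.0 CPM in those of model 2. Plxnc1, a receptor for a semaphorin, had 57.2, 22.3 and 8.15 CPM in the leukaemic and 73.6, 158 and 284 CPM in the preleukaemic libraries of model 1 (5.88-fold lower). In model 2 its leukaemic levels were 52.9, 14.5 and 49.5 CPM and its preleukaemic levels 94.0, 62.4, 76.2 and 165 CPM (2.55-fold lower). Eda, a ligand of the TNF family known from skin appendages, was 4.45-fold and 2.70-fold lower, from 22.6 to 32.9 CPM in TgSpi1FA-/- preleukaemic cells to 3.48 to 10.4 CPM in leukaemic cells of model 1.

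Genes of the actin and myosin cytoskeleton and of membrane traffic made up another part. Myh9, the heavy chain of non-muscle myosin IIA, had 255, 272 and 214 CPM in the leukaemic and 529, 494 and 539 CPM in the preleukaemic libraries of model 1, with both groups narrow. Model 2 gave 117, 76.2 and 70.7 CPM in leukaemic and 188, 199, 213 and 479.9 CPM in preleukaemic libraries, with preleukemic_837 far above the next (2.11-fold and 3.07-fold lower). Wipf1, a partner of the actin regulator WASP, had 86.0, 35.8 and 2.31 CPM in the leukaemic and 119.6, 100.1 and 129 CPM in the preleukaemic libraries of model 1, and leukemic_39 again stood far below the others. In model 2 there were 47.4, 43.6 and 33.3 against 58.8, 78.5, 85.3 and 118 CPM (2.81-fold and 2.05-fold lower). Rhog, a small GTPase that acts on RAC, had the narrowest gap of all in model 1, with leukemic_26 at 149 and preleukemic_224 at 151 CPM. In model 2 its nearest libraries were leukemic_921 at 102 and preleukemic_633 at 104 CPM. Dnm2, the dynamin that pinches off endocytic vesicles, was 2.03-fold and 2.37-fold lower. Rsu1, a partner of integrin-linked adhesion complexes, was 2.48-fold and 3.13-fold lower, and Sipa1l3, of a family that inactivates RAP GTPases, 2.23-fold and 3.12-fold. Ankrd13a, which binds ubiquitin on receptors during endocytosis, had 466, 256 and 151 CPM in the leukaemic and 562, 1183 and 755 CPM in the preleukaemic libraries of model 1, while in model 2 preleukemic_812 (283 CPM) lay only just above leukemic_601 (281 CPM). Ranbp10, which binds RAN and tubulin, was 2.35-fold and 2.47-fold lower.

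A further part serves mitochondria and metabolism. Ucp2, a carrier of the mitochondrial inner membrane, was the most abundant of the 44 per kb of exon in model 1, with 493, 381 and 124 CPM in the leukaemic and 1025, 1183 and 1172 CPM in the preleukaemic libraries of model 1. Values of model 2 were 540.0, 364 and 364 CPM in leukaemic and 742, 938, 785 and 1360.1 CPM in preleukaemic libraries, with a gap in both models (3.39-fold and 2.26-fold lower). Cpt1a, which admits long-chain fatty acids to mitochondria and sets the pace of their oxidation, had 54.8, 48.5 and 47.1 CPM in the leukaemic and 106, 67.6 and 128 CPM in the preleukaemic libraries of model 1 (2.01-fold lower). The difference was wider in model 2, with 15.2, 13.6 and 6.67 CPM against 45.3, 56.0, 49.3 and 104 CPM (5.39-fold lower). Its leukaemic libraries were each below the lowest preleukaemic library by 2.99-fold or more in model 2. Vwa8, an ATPase of mitochondria, had 26.2, 25.1 and 27.4 CPM in the leukaemic and 99.5, 81.2 and 74.6 CPM in the preleukaemic libraries of model 1 and 10.6, 12.0 and 7.79 CPM in the leukaemic and 25.6, 20.9, 12.7 and 34.7 CPM in the preleukaemic libraries of model 2. The leukaemic values of model 1 lay within a few CPM of each other, whereas preleukemic_812 was close to the leukaemic libraries of model 2. Slc25a21, a mitochondrial carrier of oxodicarboxylates, had 25.9, 19.3 and 2.96 CPM in the leukaemic and 71.7, 71.5 and 67.4 CPM in the preleukaemic libraries of model 1 (4.38-fold lower). In model 2 it had 7.87, 24.7 and 34.5 against 81.0, 79.6, 48.9 and 45.8 CPM (2.85-fold lower). Aldh1a1, a dehydrogenase that turns retinal into retinoic acid, had 6.16, 17.6 and 20.8 CPM in the leukaemic and 112, 131 and 49.1 CPM in the preleukaemic libraries of model 1. Model 2 gave 4.98, 2.23 and 6.35 against 27.0, 36.6, 14.2 and 93.1 CPM. These folds of 6.56 and 9.44 came with a wide spread among preleukaemic mice of both models. Nipal3, of a family of magnesium transporters, was 2.16-fold and 2.34-fold lower.

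Nuclear proteins were also among the 44. Wrn, a RecQ helicase with a role in DNA repair, had 124, 81.3 and 75.1 CPM in the leukaemic and 198, 287 and 305 CPM in the preleukaemic libraries of model 1 (2.82-fold lower), and 77.1, 74.2 and 50.1 against 161, 138.3, 101 and 147 CPM in model 2 (2.04-fold lower). Hnrnpul1, an RNA-binding protein, had means of 241 ± 21.7 CPM (SD, n = 3) and 495 ± 30.0 CPM (SD, n = 3) in leukaemic and preleukaemic cells of model 1 and was 2.14-fold lower in model 2. Arid4a, which binds the retinoblastoma protein, was 2.37-fold and 2.26-fold lower. Crtc3, a coactivator of CREB, and Usp24, a deubiquitinase, lay near the limits of the rule as given above, and Usp24 had 218, 208, 176 and 473 CPM in preleukaemic libraries of model 2 against 107, 132 and 162 CPM. Zfp976 and Zfp839 encode zinc finger proteins. Zfp976 had 0 counts in all 3 leukaemic libraries of model 2 and 0.913, 0.203, 5.29 and 25.7 CPM in the preleukaemic ones. Against a floor of 3 counts per library (0.0786 CPM) its mean was at least 102-fold lower, but preleukemic_633 and preleukemic_663 were themselves below 1 CPM. In model 1 it had 0, 0.916 and 3.12 CPM in leukaemic and 15.8, 7.47 and 10.5 CPM in preleukaemic libraries. Zfp976 belongs to a large family of like genes among which reads can be split. Zfp839 had 3.94, 3.32 and 3.14 CPM in the leukaemic and 11.9, 11.7 and 21.9 CPM in the preleukaemic libraries of model 1 (4.37-fold and, in model 2, 3.22-fold lower).

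The pair Eng and Plvap are best known from endothelial cells. Eng encodes endoglin, a coreceptor for TGF-beta and BMP ligands that early erythroid progenitors also carry. It had 4.55, 1.91 and 0 CPM in the leukaemic and 57.7, 11.8 and 9.41 CPM in the preleukaemic libraries of model 1 and 1.11, 0.440 and 5.07 CPM in the leukaemic and 15.2, 5.25, 5.13 and 20.01 CPM in the preleukaemic libraries of model 2. It had the largest fold of the group in model 1 (12.2-fold, and 5.16-fold in model 2), although preleukemic_77 alone gave most of the preleukaemic mean of model 1 and leukemic_921 nearly met preleukemic_812 in model 2. Plvap, which forms the diaphragms of endothelial pores, had 9.91, 14.8 and 13.2 CPM in the leukaemic and 50.4, 16.2 and 53.4 CPM in the preleukaemic libraries of model 1 and 12.5, 14.5 and 0.628 CPM in the leukaemic and 23.7, 30.6, 31.1 and 29.0 CPM in the preleukaemic libraries of model 2. The folds were 3.16 and 3.10. The other endothelial markers on the list were low or went in the other direction in model 1. Cdh5 was at or below 0.527 CPM and Pecam1 at or below 1.57 CPM in all 17 libraries. The summed level of the list without Eng and Plvap was 12.8 to 54.8 CPM in leukaemic and 1.85 to 8.34 CPM in TgSpi1FA-/- preleukaemic libraries of model 1, so that it was higher in leukaemic cells, where Kdr reached 35.7 CPM. In model 2 it was 0.292 to 0.994 and 0.260 to 6.84 CPM.

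The remaining genes were Mvp (major vault protein, 2.89-fold and 2.42-fold lower), Ccdc171 (2.96 and 3.14), Dop1b (2.08 and 4.19), Fam214a (2.29 and 2.66), Fam214b (3.07 and 2.39), Ankrd33b (2.76 and 2.11), C530008M17Rik (3.31 and 2.11) and Gm37527 (7.69 and 3.97). The paralogues Fam214a and Fam214b were thus both in the group, at 15.4, 6.35 and 12.7 and 21.5, 12.5 and 22.4 CPM in the TgSpi1FA-/- preleukaemic libraries. Ccdc171 had 5.44, 3.87 and 5.35 CPM in the leukaemic and 9.61, 15.4 and 18.3 CPM in the preleukaemic libraries of model 1, and preleukemic_812 at 5.65 CPM nearly met leukemic_921 at 5.52 CPM in model 2.

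**Figure D3:**
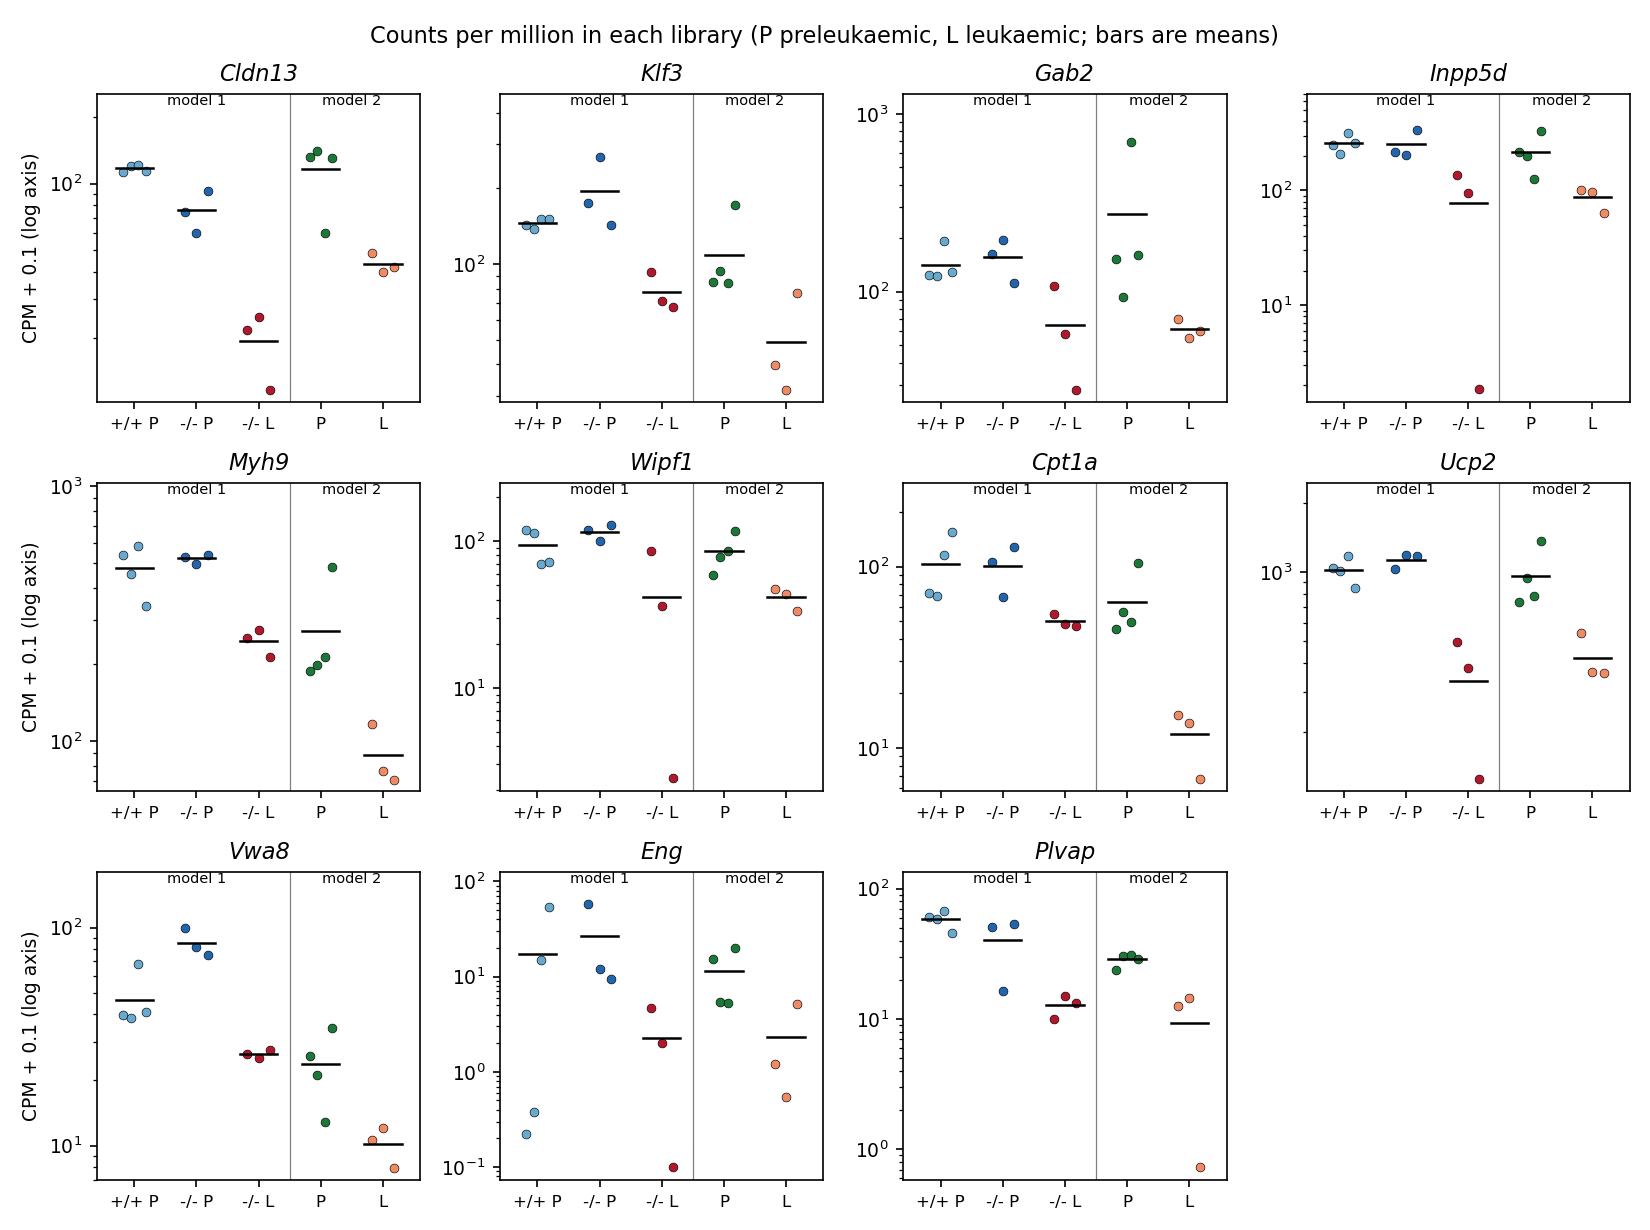
CPM (0.1 added, log axis) of 11 of the 44 genes in each of the 17 libraries, with points for libraries and bars for group means of P, preleukaemic, and L, leukaemic cells. In model 1 (left of the grey line) and model 2 (right), all L points lie below the P points of the same genotype by the choice of the genes, leukemic_39 is the isolated low point of Inpp5d and Wipf1, and the TgSpi1FA+/+ points of model 1, which were not used to choose them, mostly lie with the TgSpi1FA-/- P points.

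The TgSpi1FA+/+ preleukaemic libraries of model 1 had no part in the choice of the genes, although the leukaemic libraries with which they were compared had. The rule favoured genes that are low in those leukaemic libraries, and this alone can raise the counts and folds below. They are therefore a description and not comparable with those of unselected genes. For 34 of the 44 genes, all 4 TgSpi1FA+/+ libraries lay above all 3 leukaemic ones, compared with 15.2% of the genes of at least 5 CPM. For 6 genes 3 of the 4 libraries did so, and for 4 (Zfp976, Aldh1a1, Eng and Wipf1) 2 of the 4. The TgSpi1FA+/+ mean was at least 2-fold the leukaemic mean for 31 genes, with a median fold of 2.44 and a range from 1.47 to 8.01, against a median of 1.01 over the genes of at least 5 CPM. The count of 34 was 35 with preleukemic_445 and preleukemic_479 as 1 library, and between 34 and 39 with any 1 of these 7 mice left out.

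Among the named genes, Cldn13 had 113, 119, 122 and 114 CPM in preleukemic_445, preleukemic_479, preleukemic_451 and preleukemic_138, 6.03-fold the leukaemic mean and with little spread. Plvap had 60.5, 58.9, 67.5 and 45.7 CPM and Slc25a21 86.2, 88.1, 67.2 and 99.5 CPM in the same order, which also lay far above the leukaemic libraries. Plxnc1 had 184, 188, 232 and 105 CPM (6.08-fold). Eng was uneven, with 0.122, 0.281, 14.7 and 54.0 CPM, so that preleukemic_445 and preleukemic_479 were at the level of leukemic_39 or little above and preleukemic_138 was at that of preleukemic_77. Aldh1a1 likewise had 9.83, 10.4, 87.6 and 85.5 CPM, with the like libraries preleukemic_445 and preleukemic_479 within the leukaemic range. The lowest folds of the TgSpi1FA+/+ over the leukaemic mean were those of Dop1b (1.47), Dnm2 (1.63), Usp24 (1.68), Cat (1.68) and Fam214a (1.73). Cat had 344, 343, 161 and 229 CPM, with preleukemic_451 below the leukaemic library leukemic_26. If the TgSpi1FA+/+ libraries took the place of the TgSpi1FA-/- preleukaemic ones in the rule, 35 genes met it, 23 of them among the 44.

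**Figure D4:**
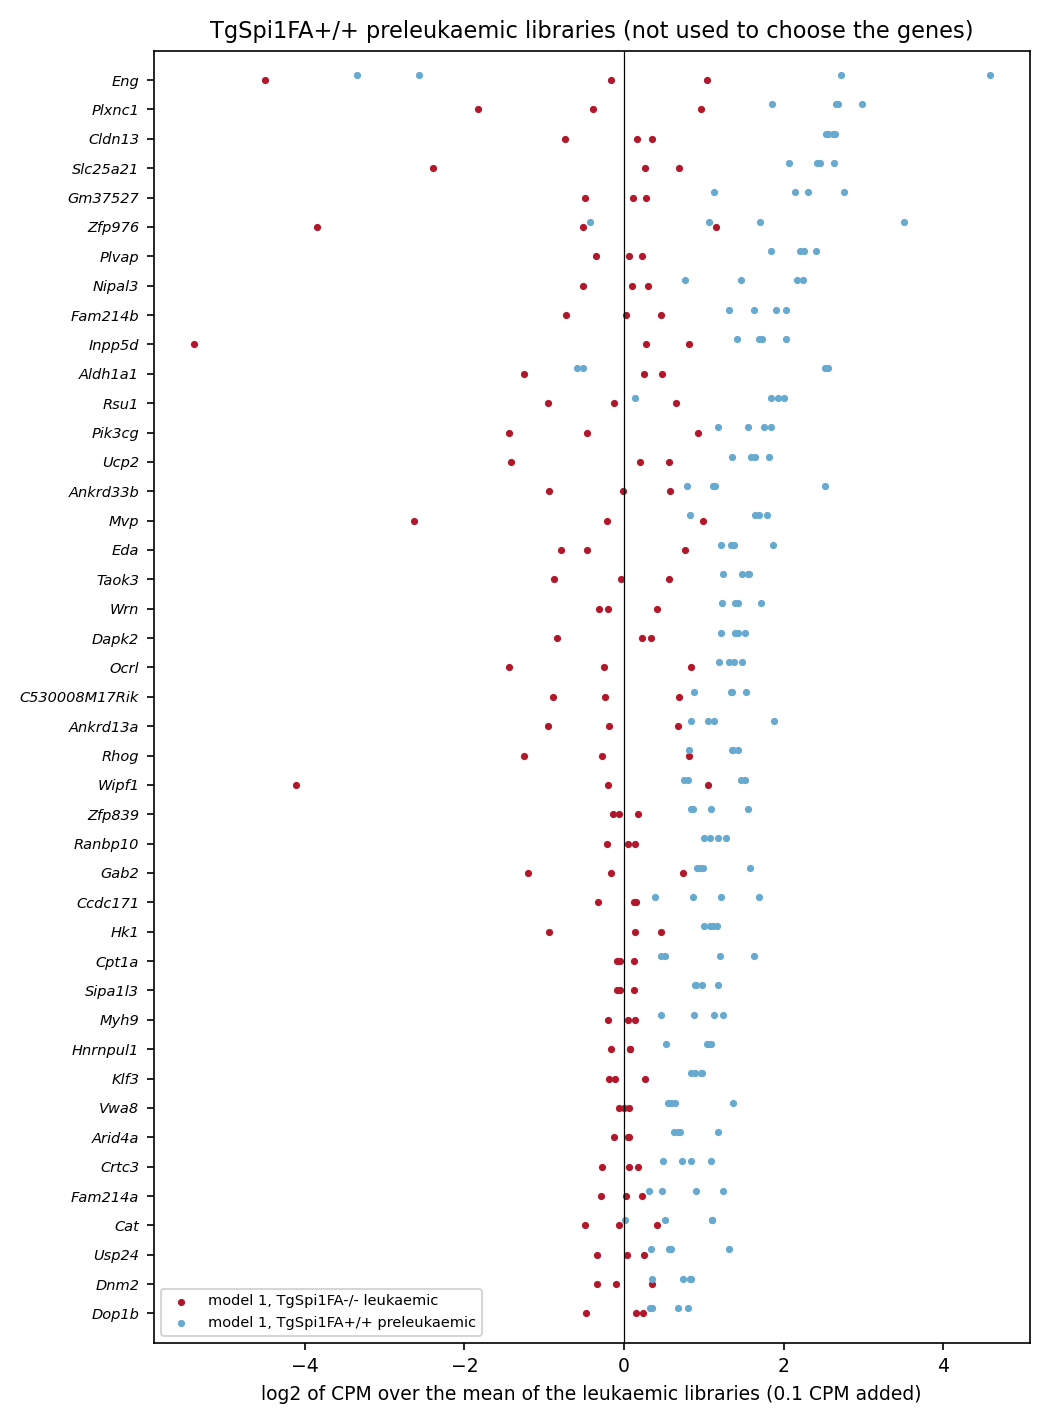
Log2 of the CPM of each library over the mean of the 3 leukaemic libraries of model 1 (x axis, 0.1 CPM added) for 43 of the 44 genes, ordered by the fold of the TgSpi1FA+/+ mean. Blue points are the 4 TgSpi1FA+/+ preleukaemic libraries and red points the leukaemic ones. For 34 genes all blue points lie to the right of all red ones, and Eng, Aldh1a1, Zfp976 and Wipf1 have 2 of their blue points at or below the highest red one.

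A second deposited table held other counts for 7 of these mice. Its leukaemic libraries come from the same 3 mice whose values chose the genes, so its counts are likewise a description. In it all 4 TgSpi1FA+/+ libraries lay above all 3 leukaemic ones for 17 of the 44 genes, compared with 8.97% of the genes of at least 5 CPM, and 16 of the 17 were among the 34 of the first table. The 17 were Aldh1a1, Dapk2, Plvap, Slc25a21, Pik3cg, Cldn13, Plxnc1, Taok3, Ranbp10, Vwa8, Ucp2, Sipa1l3, Klf3, Hk1, Nipal3, Hnrnpul1 and Usp24. The TgSpi1FA+/+ mean was at least 2-fold the leukaemic mean for 26 of the 44. Cldn13 had 41.2, 34.0 and 23.1 CPM in the leukaemic and 197, 267, 139 and 313 CPM in the TgSpi1FA+/+ libraries of that table. Across genes, the library preleukemic_445 of the first table was nearest to preleukemic_479 of the second (Pearson r of 0.911 against 0.884 with its own number). Each other library of the first table was nearest to its own number in the second. Seen from the second table, preleukemic_479 was nearest to preleukemic_445 of the first (0.911 against 0.908 with its own number). Likewise preleukemic_445 of the second was nearest to preleukemic_451 of the first (0.903 against 0.884 with its own number).

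The comparison of TgSpi1FA-/- with TgSpi1FA+/+ preleukaemic cells asks whether the genes already differed with Fanca before leukaemia. It shares the TgSpi1FA-/- preleukaemic libraries with the rule, which favoured genes that are high in them. Shares, medians and single calls of the 44 are therefore a description and not comparable with those of unselected genes. EdgeR's quasi-likelihood test called 0 of the 44 genes (fold change of 1.5 or more, with a p adjusted by Benjamini-Hochberg that was under 0.05), against 1 of 13393 genes tested (0.00747%). The unadjusted p was under 0.05 for 4 of the 44, which is 9.09%, close to the 8.65% of all genes tested. The lowest adjusted p was 0.513. The median log2 fold change of TgSpi1FA-/- over TgSpi1FA+/+ cells was 0.18 over the 44 genes and 0.0048 over all genes tested. Vwa8 had the lowest p, with 85.1 ± 12.9 CPM (SD, n = 3) in TgSpi1FA-/- and 46.6 ± 14.1 CPM (SD, n = 4) in TgSpi1FA+/+ preleukaemic cells. The log2 fold change was 0.86 with a standard error of 0.21. DESeq2's Wald test called it (adjusted p = 0.0257), as did edgeR without preleukemic_451 (adjusted p = 0.0359). In edgeR's quasi-likelihood test with all mice its adjusted p and those of the next 4 did not pass: Zfp839 (log2 fold change 0.998 ± 0.32, adjusted p = 0.535), Arid4a (0.43 ± 0.16, adjusted p = 0.545), Cldn13 (−0.63 ± 0.25, adjusted p = 0.551) and Dop1b (0.50 ± 0.22, adjusted p = 0.577). Of the 44, 31 had a lower mean in TgSpi1FA+/+ than in TgSpi1FA-/- preleukaemic cells, against 54.3% of the genes of at least 5 CPM. The choice of the genes alone can raise this count.

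Over all genes, edgeR's quasi-likelihood test called 6.49% of 13393 genes lower and 6.82% higher in leukaemic than in TgSpi1FA-/- preleukaemic cells of model 1. In model 2 it called 0 of 12970 genes (0%), while 2587 had an unadjusted p under 0.05 and DESeq2's Wald test called 1197. These contrasts chose the 44 genes, so their calls are not counted.

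Genes of erythroid, signalling, cytoskeletal and metabolic pathways were examined on fixed lists, with the 44 left out. Of the 44, 12 were on any list, that of endothelial markers included, and 32 on none. The lists of globin and heme synthesis, iron handling, autophagy and cell cycle exit held 0 of the 44. Of 366 such genes tested in model 1, 52 (14.2%) were called lower and 27 (7.38%) higher in leukaemic cells by edgeR, where all genes tested gave 6.49% and 6.82%. The lists were chosen with earlier results of these data known. Their shares, here and below, are therefore a description and no independent evidence. The count of 52 was 22 without leukemic_28 or preleukemic_224, 30 without leukemic_39, 31 without preleukemic_40, 33 in a fit of the 2 compared groups alone and 65 with DESeq2, which also called 48 higher. The count of 27 higher genes was between 7 and 26 with 1 mouse left out. In model 2 edgeR called 0 of 356, with 96 at an unadjusted p under 0.05, while DESeq2 called 52 lower and 5 higher. Every leukaemic library lay below every preleukaemic one for 67 (18.8%) and above it for 12 (3.37%), where all genes tested in model 2 gave 10.2% and 9.44%. The median log2 fold change of all genes tested was 0.00 in model 1 and −0.03 in model 2. Log2 fold changes of single genes below are given with a standard error and the adjusted p of edgeR's quasi-likelihood test in model 1. That standard error was worked back from the test, as the size of the log2 fold change over the square root of its F statistic.

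The membrane of the red cell is laid over a protein skeleton and carries the blood group proteins. Of 35 tested genes of the red cell membrane and cytoskeleton list, 5 were called lower and 2 higher in leukaemic cells of model 1 (median log2 fold change −0.54). With 1 mouse left out these were 3 to 10 lower and 1 to 3 higher, and with DESeq2 8 and 6. Lower were, by adjusted p, Ermap (−2.19 ± 0.22, adjusted p = 0.00241), Stom (−1.62 ± 0.24, adjusted p = 0.00774) and Piezo1 (−0.97 ± 0.21, adjusted p = 0.0206). Higher were Tmod1 (3.64 ± 0.42, adjusted p = 0.00396) and Flot2 (1.36 ± 0.34, adjusted p = 0.0322). The call was lost for Piezo1 without preleukemic_77, preleukemic_224, leukemic_28 or leukemic_39 (adjusted p up to 0.0816) and for Flot2 without preleukemic_77, preleukemic_224, leukemic_26, leukemic_28 or leukemic_39 (adjusted p up to 0.102). EdgeR called 0 of 35 in model 2, where 12 lower and 1 higher genes had an unadjusted p under 0.05, and DESeq2 called 8 lower and 1 higher. There, 6 genes had all leukaemic below all preleukaemic libraries and 1 the reverse (median log2 fold change over the list −0.95). Ermap is the Scianna blood group protein, Stom is stomatin and Piezo1 a mechanosensitive channel.

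Erythroid genes are switched on by GATA1, TAL1 and KLF1 with their cofactors. The erythroid transcription factors and cofactors list had 41 genes tested in model 1, of which 8 were called lower and 1 higher in leukaemic cells, with a median log2 fold change of −0.33. DESeq2 gave 8 lower and 3 higher in model 1, and edgeR 4 to 8 lower and 0 to 2 higher with 1 mouse left out. The strongest lower calls were Zbtb7a (−1.50 ± 0.19, adjusted p = 0.00535), Klf1 (−1.27 ± 0.18, adjusted p = 0.00626) and Ikzf1 (−1.20 ± 0.20, adjusted p = 0.0112). Its higher gene was Ets1 (2.07 ± 0.56, adjusted p = 0.0405). A call was not kept for Ets1 without preleukemic_77, preleukemic_224, preleukemic_40, leukemic_28 or leukemic_39 (adjusted p up to 0.118). For model 2, edgeR called 0 of 40 genes (17 lower and 0 higher at an unadjusted p under 0.05) and DESeq2 8 lower and 0 higher. All leukaemic libraries of model 2 lay below all preleukaemic ones for 15 genes and above them for 0, and the median log2 fold change was −0.71. Klf1, the activator of adult globin and red cell membrane genes, had 102 to 159.9 CPM in leukaemic and 282 to 355 CPM in TgSpi1FA-/- preleukaemic libraries of model 1, with no overlap, while in model 2 the ranges were 45.9 to 87.2 and 61.7 to 121 CPM and overlapped.

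Haemoglobin is made from globin chains and heme. Of 28 tested genes of the globin and heme synthesis list, 1 was called lower and 1 higher in leukaemic cells of model 1 (median log2 fold change 0.05). With 1 mouse left out these were 0 to 1 lower and 0 to 2 higher, and with DESeq2 1 and 4. Its lower gene was Hbb-bt (−5.94 ± 1.38, adjusted p = 0.0265). Its higher gene was Hbb-bh1 (16.3 to 1879.9 CPM in leukaemic and 0 to 0.1001 CPM in TgSpi1FA-/- preleukaemic libraries, adjusted p = 0.0176). The call was lost for Hbb-bt without preleukemic_77, preleukemic_224 or leukemic_28 (adjusted p up to 0.0950) and for Hbb-bh1 without preleukemic_77, preleukemic_224, preleukemic_40 or leukemic_28 (adjusted p up to 0.0728). EdgeR called 0 of 26 in model 2, where 5 lower and 1 higher genes had an unadjusted p under 0.05, and DESeq2 called 4 lower and 1 higher. There, 4 genes had all leukaemic below all preleukaemic libraries and 1 the reverse (median log2 fold change over the list −0.21). Hbb-bt is an adult and Hbb-bh1 an embryonic beta-like globin gene, and reads can be split between such like copies. Iron for heme enters through the transferrin receptor. The iron handling list had 22 genes tested in model 1, of which 3 were called lower and 0 higher in leukaemic cells, with a median log2 fold change of −0.21. DESeq2 gave 4 lower and 0 higher in model 1, and edgeR 1 to 4 lower and 0 higher with 1 mouse left out. Called lower with the smallest adjusted p were Slc40a1 (−3.10 ± 0.20, adjusted p = 3.02e-04), Tfr2 (−2.19 ± 0.39, adjusted p = 0.0127) and Aco1 (−0.80 ± 0.19, adjusted p = 0.0275). A call was not kept for Tfr2 without leukemic_28 (adjusted p up to 0.0579) and for Aco1 without preleukemic_224, preleukemic_40, leukemic_28 or leukemic_39 (adjusted p up to 0.0963). For model 2, edgeR called 0 of 22 genes (4 lower and 1 higher at an unadjusted p under 0.05) and DESeq2 3 lower and 1 higher. All leukaemic libraries of model 2 lay below all preleukaemic ones for 5 genes and above them for 3, and the median log2 fold change was −0.03. Slc40a1 is the iron exporter ferroportin and Tfr2 a sensor of transferrin.

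Receptors, kinases, adaptors and inhibitors of the EPO and KIT pathways formed the longest list. Of 62 tested genes of the EPO and KIT signalling list, 7 were called lower and 9 higher in leukaemic cells of model 1 (median log2 fold change 0.05). With 1 mouse left out these were 3 to 11 lower and 2 to 6 higher, and with DESeq2 10 and 13. The lower side was led by Dok1 (−1.45 ± 0.15, adjusted p = 0.00280) and Mknk2 (−0.82 ± 0.12, adjusted p = 0.00741). Higher were Spry4 (43.8 to 95.1 CPM in leukaemic and 0 to 1.22 CPM in TgSpi1FA-/- preleukaemic libraries, adjusted p = 0.0127), Sh2b3 (1.27 ± 0.24, adjusted p = 0.0159) and Dusp2 (4.17 ± 0.81, adjusted p = 0.0164). The call was lost for Sh2b3 without preleukemic_224 or leukemic_28 (adjusted p up to 0.0601) and for Dusp2 without preleukemic_77 or preleukemic_40 (adjusted p up to 0.0529). EdgeR called 0 of 60 in model 2, where 14 lower and 0 higher genes had an unadjusted p under 0.05, and DESeq2 called 8 lower and 0 higher. There, 16 genes had all leukaemic below all preleukaemic libraries and 0 the reverse (median log2 fold change over the list −0.51). Dok1, Spry4, Sh2b3 and Dusp2 are negative regulators of receptor, JAK or MAP kinase signals, so that such regulators were found in both directions.

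Actin and myosin II act in cell division, in adhesion and in the loss of the erythroid nucleus. The actin and myosin cytoskeleton list had 58 genes tested in model 1, of which 7 were called lower and 7 higher in leukaemic cells, with a median log2 fold change of −0.22. DESeq2 gave 11 lower and 12 higher in model 1, and edgeR 2 to 10 lower and 2 to 9 higher with 1 mouse left out. Lower were, by adjusted p, Syne1 (−2.65 ± 0.41, adjusted p = 0.00878), Diaph3 (−0.92 ± 0.16, adjusted p = 0.0120) and Abi1 (−0.78 ± 0.14, adjusted p = 0.0125). The calls in the other direction included Wasf1 (4.24 ± 0.64, adjusted p = 0.00838), Rhob (2.05 ± 0.32, adjusted p = 0.00891) and Tmsb10 (2.83 to 4.98 CPM in leukaemic and 0.0289 to 0.133 CPM in TgSpi1FA-/- preleukaemic libraries, adjusted p = 0.0175). A call was not kept for Diaph3 without leukemic_28 (adjusted p up to 0.0545) and for Tmsb10 without preleukemic_224, preleukemic_40 or leukemic_28 (adjusted p up to 0.0724). For model 2, edgeR called 0 of 55 genes (17 lower and 0 higher at an unadjusted p under 0.05) and DESeq2 10 lower and 0 higher. All leukaemic libraries of model 2 lay below all preleukaemic ones for 8 genes and above them for 1, and the median log2 fold change was −0.25. Fatty acids are oxidized in mitochondria, and carriers move substrates across the inner membrane. Of 33 tested genes of the fatty acid oxidation and mitochondrial carriers list, 6 were called lower and 0 higher in leukaemic cells of model 1 (median log2 fold change −0.41). With 1 mouse left out these were 1 to 10 lower and 0 to 1 higher, and with DESeq2 8 and 2. The strongest lower calls were Hadha (−0.82 ± 0.14, adjusted p = 0.0107), Acsl1 (−1.96 ± 0.37, adjusted p = 0.0148) and Etfdh (−0.80 ± 0.16, adjusted p = 0.0194). The call was lost for Acsl1 without preleukemic_224 or leukemic_28 (adjusted p up to 0.0615) and for Etfdh without preleukemic_224, preleukemic_40, leukemic_28 or leukemic_39 (adjusted p up to 0.0788). EdgeR called 0 of 31 in model 2, where 6 lower and 1 higher genes had an unadjusted p under 0.05, and DESeq2 called 3 lower and 1 higher. There, 4 genes had all leukaemic below all preleukaemic libraries and 1 the reverse (median log2 fold change over the list −0.08). Hadha and Etfdh take part in the oxidation itself and Acsl1 activates fatty acids.

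Maturing red cells remove their organelles by autophagy. The autophagy, mitophagy and organelle clearance list had 48 genes tested in model 1, of which 7 were called lower and 2 higher in leukaemic cells, with a median log2 fold change of −0.26. DESeq2 gave 7 lower and 2 higher in model 1, and edgeR 2 to 9 lower and 0 to 1 higher with 1 mouse left out. Among them, lower levels were called for Optn (−1.93 ± 0.24, adjusted p = 0.00519), Atg2a (−1.37 ± 0.22, adjusted p = 0.00957) and Atg2b (−0.97 ± 0.18, adjusted p = 0.0159). The higher side was led by Map1lc3a (1.33 ± 0.37, adjusted p = 0.0451) and Bnip3 (1.62 ± 0.47, adjusted p = 0.0492). A call was not kept for Atg2b without preleukemic_224 (adjusted p up to 0.0517), for Map1lc3a without preleukemic_77, preleukemic_224, preleukemic_40, leukemic_28 or leukemic_39 (adjusted p up to 0.128) and for Bnip3 without preleukemic_77, preleukemic_224, preleukemic_40, leukemic_26 or leukemic_39 (adjusted p up to 0.125). For model 2, edgeR called 0 of 48 genes (8 lower and 4 higher at an unadjusted p under 0.05) and DESeq2 4 lower and 1 higher. All leukaemic libraries of model 2 lay below all preleukaemic ones for 6 genes and above them for 4, and the median log2 fold change was −0.08. The last divisions end with inhibitors of the cyclin-dependent kinases and with the pocket proteins. Of 41 tested genes of the cell cycle exit and CDK inhibition list, 9 were called lower and 5 higher in leukaemic cells of model 1 (median log2 fold change −0.0048). With 1 mouse left out these were 2 to 9 lower and 2 to 5 higher, and with DESeq2 9 and 6. Called lower with the smallest adjusted p were Rbl2 (−2.73 ± 0.40, adjusted p = 0.00769), Trp53inp1 (−2.89 ± 0.51, adjusted p = 0.0125) and Ccng1 (−1.72 ± 0.31, adjusted p = 0.0138). Higher were Btg2 (1.64 ± 0.26, adjusted p = 0.00966), Gadd45b (3.70 ± 0.68, adjusted p = 0.0141) and E2f5 (1.27 ± 0.24, adjusted p = 0.0158). The call was lost for Ccng1 without leukemic_28 (adjusted p up to 0.0609) and for E2f5 without preleukemic_224 (adjusted p up to 0.0589). EdgeR called 0 of 41 in model 2, where 5 lower and 1 higher genes had an unadjusted p under 0.05, and DESeq2 called 4 lower and 0 higher. There, 4 genes had all leukaemic below all preleukaemic libraries and 1 the reverse (median log2 fold change over the list −0.25). Trp53inp1, Ccng1, Btg2 and Gadd45b are known to respond to p53 or to stress.

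Of 40 called non-members picked from these lists by the rule for named genes, 26 stayed called without leukemic_28 and 26 without preleukemic_224, 32 without preleukemic_40, 32 without preleukemic_77, 33 without leukemic_39 and 38 without leukemic_26. DESeq2 called all 40, and edgeR on the compared groups alone 34.

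Markers of other blood and stromal cells were also examined. The summed level of the mast cell list was 114 to 408 CPM in leukaemic and 151 to 318 CPM in TgSpi1FA-/- preleukaemic libraries of model 1, and 417 to 2031 and 69.4 to 3570.1 CPM in model 2. Of the markers named for this list, Cpa3 was at 11.6 to 32.0 CPM in leukaemic and 0 to 2.27 CPM in preleukaemic libraries of model 2. Mcpt8, which is not specific to mast cells, was at 1.02 to 5.35 and 0 to 0.104 CPM there. Cma1 was at 2.43 to 4.64 and 0 to 0.391 CPM. Fcer1a overlapped (25.0 to 48.5 and 2.49 to 54.7 CPM), and Tpsb2 was at or below 0.233 CPM in each library. Of 10 genes of the list tested in model 2, 4 had all leukaemic above all preleukaemic libraries and 0 the reverse. All genes tested there gave 9.44% and 10.2%, and edgeR called 0 of the 10. The megakaryocyte and platelet list summed to 909 to 2021 and 435 to 940.4 CPM in model 1, and to 386 to 1119.8 and 753 to 1331 CPM in model 2. These ranges overlapped in both models. In model 1 edgeR called 3 of 17 genes higher in leukaemic cells (Itga2b, F2r and Vwf), where all genes tested gave 6.82%. With 1 mouse left out, Itga2b stayed called in 6 of 6 fits. F2r and Vwf stayed called in 2 of 6 each (edgeR adjusted p up to 0.0586 and 0.104). The B cell list was the one with lower sums in leukaemic libraries of model 1 (0.812 to 3.05 against 21.8 to 84.8 CPM), and almost all of this was the adaptor gene Blnk (0 to 2.25 CPM in leukaemic and 21.6 to 84.4 CPM in TgSpi1FA-/- preleukaemic libraries), while its defining marker Cd79a was at or below 0.218 CPM in each library. Of the white cell markers, Mpo, Csf1r, Lyz2, Vcam1, Marco, Cd3e and Nkg7 were each at or below 1.47 CPM in all libraries. Other genes of their lists were not as low. The neutrophil and monocyte list summed to 10.6 to 89.6 CPM in leukaemic and 36.6 to 71.7 CPM in TgSpi1FA-/- preleukaemic libraries of model 1, and 111 to 113 and 104 to 163 CPM in model 2. EdgeR called 0 of the 9 genes of the list tested in model 1 (4 at an unadjusted p under 0.05, and 2 called by DESeq2). For the macrophage list the sums were 5.63 to 16.0 CPM in leukaemic and 6.11 to 8.19 CPM in TgSpi1FA-/- preleukaemic libraries of model 1, and 6.46 to 12.8 and 3.63 to 11.5 CPM in model 2. Axl was called higher in leukaemic cells (1.83 to 3.59 CPM in leukaemic and 0 CPM in TgSpi1FA-/- preleukaemic libraries of model 1, adjusted p = 0.0116). T and NK cell genes summed to 4.29 to 6.05 CPM in leukaemic and 0.866 to 1.44 CPM in TgSpi1FA-/- preleukaemic libraries of model 1, and 1.62 to 8.08 and 0.964 to 4.97 CPM in model 2. Nearly all of this was the kinase gene Lck, called higher in leukaemic cells of model 1 (3.90 to 5.30 CPM in leukaemic and 0.808 to 1.19 CPM in TgSpi1FA-/- preleukaemic libraries, adjusted p = 0.0293, and up to 0.0994 with 1 mouse left out). The fibroblast list was uneven, with sums of 2.00 to 1292 CPM in leukaemic and 9.70 to 267 CPM in TgSpi1FA-/- preleukaemic libraries of model 1, and 0.0259 to 0.680 and 0.0254 to 33.4 CPM in model 2. In it the matrix gene Fn1 had 0 to 1267 CPM in leukaemic and 0 CPM in TgSpi1FA-/- preleukaemic libraries of model 1, the collagen gene Col1a2 0.157 to 5.70 CPM in leukaemic and 9.64 to 264 CPM in TgSpi1FA-/- preleukaemic libraries, and Sparc 0.333 to 80.8 CPM in leukaemic and 0 to 0.0289 CPM in TgSpi1FA-/- preleukaemic libraries (called higher, adjusted p = 0.0160, and up to 0.0698 with 1 mouse left out). The part of these genes in the levels of the 44 was not tested.

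Their median genomic span was 80.6 kb, against 24.1 kb for the genes of at least 5 CPM, and their median exon length 7.29 against 4.67 kb. Of the 44, 28 (63.6%) were in the longest of 4 classes of equal size by span, which begins at 51.2 kb. Slc25a21 (485 kb), Eda (425 kb), Vwa8 (353 kb) and Ccdc171 (339 kb) were the longest and Cldn13 (1.28 kb) the shortest. Over the genes of at least 5 CPM, the median log2 ratio of leukaemic to preleukaemic cells also changed with span. From the shortest to the longest class it was 0.01, −0.04, −0.05 and −0.16 in model 1 and 0.19, −0.04, −0.20 and −0.47 in model 2. With the median of the same class taken off each log2 ratio, 20 genes met the rule, all of them among the 44. In all but the shortest class both medians were negative, so that there this step could only take genes away. The part of gene length or of RNA quality in the differences was not tested.

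**Figure D5:**
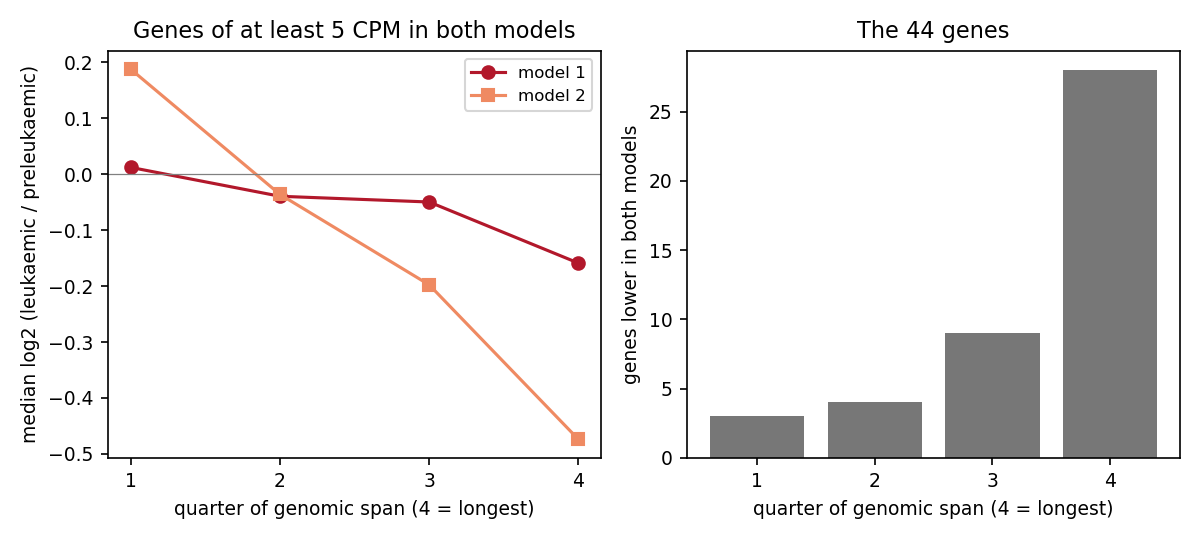
Left, median log2 ratio of leukaemic over preleukaemic means (y axis) in 4 equal classes of genomic span (x axis) of the genes of at least 5 CPM, for model 1 (circles) and model 2 (squares). Right, number of the 44 genes in each class, which was 3, 4, 9 and 28 from the shortest to the longest.

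Chromosome 7 held 8 of them (18.2%), compared with 7.22% of the genes of at least 5 CPM, namely Hnrnpul1, Sipa1l3, Zfp976, Crtc3, Gab2, Ucp2, Rhog and Mvp. The nearest neighbours, Ucp2 (chr7:100493337-100502020) and Rhog (chr7:102239123-102256054), were 1.74 Mb apart. Cldn13 lies at chr5:134914249-134915526, Klf3 at chr5:64803388-64832901, Inpp5d at chr1:87620312-87720507, Myh9 at chr15:77760587-77842175, Cpt1a at chr19:3322334-3385733, Eng at chr2:32646595-32682669 and Aldh1a1 at chr19:20492715-20643465 (GRCm38, GENCODE M21).

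Promoter windows from 250 bases before to 50 bases after a start were found in RefSeq (GRCm38.p6) for 35 of the 44 genes, with 48 windows in all. They were searched on both strands for the core letters of sites of 4 factor families. GAGGAA, the core letters of PU.1 and other ETS sites, was present in 33.3% of the 48 windows (14 genes) and in 25.9% of 8967 windows of the genes of at least 5 CPM. AGATAA, the letters of GATA sites, was present in 4.17% (2 genes, Zfp976 and Aldh1a1) against 5.97%. CCNCNCCC, the letters of KLF sites, was present in 66.7% (27 genes) against 67.8%, and TTCNNNGAA, those of STAT sites, in 0% against 6.69%. The median GC content was 62.2% against 61.3%. No difference was tested, and a match of letters is no evidence that a factor binds. The windows of Plxnc1, which holds the most copies of GAGGAA in the group (4), of Inpp5d and Pik3cg with 2 each, and of Zfp976, one of the pair with AGATAA, are given 5′ to 3′ on the strand of the gene, with capitals for GAGGAA or AGATAA on either strand (read as TTCCTC or TTATCT where the match is on the other strand).
Plxnc1, chr10:94944796-94945095, minus strand: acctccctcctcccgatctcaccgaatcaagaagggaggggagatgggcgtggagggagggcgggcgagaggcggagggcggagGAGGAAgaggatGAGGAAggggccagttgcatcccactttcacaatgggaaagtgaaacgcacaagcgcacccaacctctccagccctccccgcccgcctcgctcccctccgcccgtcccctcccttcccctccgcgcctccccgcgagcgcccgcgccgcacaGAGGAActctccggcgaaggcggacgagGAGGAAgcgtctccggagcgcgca
Inpp5d, chr1:87620062-87620361, plus strand: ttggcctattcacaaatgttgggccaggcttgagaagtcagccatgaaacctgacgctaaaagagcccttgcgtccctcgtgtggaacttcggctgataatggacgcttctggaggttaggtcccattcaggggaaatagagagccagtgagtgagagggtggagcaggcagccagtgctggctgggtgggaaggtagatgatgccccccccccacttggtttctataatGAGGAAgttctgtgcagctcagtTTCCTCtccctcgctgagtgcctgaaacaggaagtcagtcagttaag
Pik3cg, chr12:32208610-32208909, minus strand: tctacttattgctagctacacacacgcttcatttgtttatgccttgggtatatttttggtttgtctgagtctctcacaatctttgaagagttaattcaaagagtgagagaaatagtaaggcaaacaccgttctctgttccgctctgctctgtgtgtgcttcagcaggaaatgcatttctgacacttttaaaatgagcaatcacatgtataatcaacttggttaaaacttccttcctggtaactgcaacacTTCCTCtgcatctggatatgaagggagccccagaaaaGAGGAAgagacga
Zfp976, chr7:42642555-42642854, minus strand: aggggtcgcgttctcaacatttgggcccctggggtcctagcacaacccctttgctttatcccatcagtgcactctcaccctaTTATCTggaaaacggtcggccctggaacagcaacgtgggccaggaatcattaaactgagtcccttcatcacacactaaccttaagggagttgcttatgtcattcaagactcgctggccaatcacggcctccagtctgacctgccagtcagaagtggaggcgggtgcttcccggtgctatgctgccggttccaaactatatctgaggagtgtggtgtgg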

How the data were processed

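RNA-seq read counts of 17 libraries, 1 per mouse, were analysed. The authors deposited raw counts per Ensembl gene, without normalization. The submitters' processing notes name bcl2fastq 2.17.1.14, STAR 2.5.3a and HTSeq 0.6.1p1 and the builds mm10 and GRCm38. The annotation release and the strand setting of the counting are not given in the sources used here. The tables held 26029 (model 1) and 24659 genes (model 2). A second table of counts for 7 mice of model 1 was used as an alternative, and a duplicate of the model 2 table was left out.

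The genes were found by the rule given above in CPM of the total count of each library. The members and the lists were chosen with earlier results of these data known. Each model was fitted with edgeR 4.0.16 (R 4.3.3; TMM, filterByExpr, glmQLFit and glmQLFTest), with all 10 libraries of model 1 in 1 fit of 3 groups. A call needed a fold change of 1.5 or more and, after Benjamini-Hochberg adjustment, a p under 0.05. Alternatives were DESeq2 1.42.0, its size factors, other filters, other limits of the rule, and each mouse left out. The chain was tested on simulated data. Errors of means are the SD between mice, and the floor of 3 counts covers counting error only. Standard errors of log2 fold changes were worked back from the F statistic of edgeR's test. Named genes were members on a list, the 8 with the largest difference in the model where it was smaller, the 6 most abundant, those at the limits, the 5 of lowest p between genotypes, the 5 lowest in the ratio of TgSpi1FA+/+ to leukaemic means, and up to 3 called genes per list and direction; other members are named to account for each. Results of some genes, 1 member among them, are not reported here. Spi1, and each gene named for its neighbours, its promoter letters or a mouse left out, was chosen after its values were seen. Gene positions came from GENCODE M21, which held all 44 genes, and promoters from RefSeq.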

Additional observations from a re-analysis of the deposited data

Results flagged for a closer look

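In groups of 4 libraries, 1 mouse stood apart from the other 3 for some of the genes, by a gap to the nearest library that took more of the range of the group than Dixon's critical value for 4 samples. This was so in 15 of 92 groups examined, where chance gives about 1 in 20. That share does not apply to 8 of the 15, which were preleukaemic libraries of model 2, since the rule used their values to choose the genes. The near identity of preleukemic_445 and preleukemic_479 enters the groups of model 1. Values in brackets are the share of the range taken by the gap. Among the preleukaemic libraries of model 2, preleukemic_837 was the highest for Pik3cg (preleukemic_837 at 127, the nearest at 56.9 CPM, 0.837), Fam214a (preleukemic_837 at 24.0, the nearest at 10.1 CPM, 0.832), Klf3 (preleukemic_837 at 172, the nearest at 93.8 CPM, 0.888), Myh9 (preleukemic_837 at 479.9, the nearest at 213 CPM, 0.914) and Usp24 (preleukemic_837 at 473, the nearest at 218 CPM, 0.861). preleukemic_812 was the lowest for Cldn13 (preleukemic_812 at 59.8, the nearest at 130.0 CPM, 0.869) and the highest for Gab2 (preleukemic_812 at 693, the nearest at 161 CPM, 0.887), and preleukemic_633 was the highest for Eda (preleukemic_633 at 30.8, the nearest at 15.8 CPM, 0.840). Among the TgSpi1FA+/+ preleukaemic libraries of model 1, preleukemic_451 was the highest for Gab2 (preleukemic_451 at 192, the nearest at 128 CPM, 0.907), Vwa8 (preleukemic_451 at 67.7, the nearest at 40.8 CPM, 0.917), Arid4a (preleukemic_451 at 80.9, the nearest at 58.2 CPM, 0.890) and Ankrd33b (preleukemic_451 at 219, the nearest at 84.2 CPM, 0.882). preleukemic_138 was the lowest for Rsu1 (preleukemic_138 at 106, the nearest at 349 CPM, 0.856), Hnrnpul1 (preleukemic_138 at 346, the nearest at 496 CPM, 0.905) and Rhog (preleukemic_138 at 149, the nearest at 217 CPM, 0.860).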

How the results depend on the processing

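The rule gave 43 genes with TMM-scaled CPM (39 of the 44), 45 with a preleukaemic mean of at least 1 CPM and 42 with at least 10 CPM. It gave 3 with a ratio of at most 0.25, 27 with medians (26 of the 44), and, in an alternative chosen after seeing the data, 20 with the median of the span class taken off. Without 1 mouse it gave between 23 (preleukemic_837) and 91 (leukemic_601) genes, and more than 1.5 times as many also without leukemic_921 (89), preleukemic_633 (87) and preleukemic_812 (83). Another pair of alternatives chosen after seeing the data gave 35 genes (TgSpi1FA+/+ preleukaemic libraries in place of TgSpi1FA-/-) and 30 (all 7 preleukaemic libraries of model 1). The count of genes with TgSpi1FA+/+ libraries above all leukaemic ones was 37 of 44 with TMM-scaled CPM and 17 in the second table, and between 17 and 39 with 1 mouse left out, where the 17 is the second table without leukemic_39. The calls of leukaemic against preleukaemic cells of model 1 numbered 1782 in edgeR, 2924 in DESeq2 and from 414 (without leukemic_28) to 2319 (without leukemic_26) with 1 mouse left out, with 418 without preleukemic_224, 711 without leukemic_39, 822 without preleukemic_77 and 833 without preleukemic_40. TgSpi1FA-/- against TgSpi1FA+/+ preleukaemic cells gave 1 call, 226 in DESeq2, 4 with no filter on low counts and from 1 to 16 (without preleukemic_451) with 1 mouse left out. Model 2 gave 0 calls in edgeR, 1197 in DESeq2 and from 0 to 1 with 1 mouse left out. No paired analysis was possible because each mouse has a number of its own and the groups share none. The scaling by TMM moved the median log2 ratio of the genes of at least 5 CPM in model 1 from −0.05 to −0.10, and in model 2 from −0.13 to −0.11. Directions were compared for the 40 called non-members named from the pathway lists and the 5 members of lowest p between genotypes. No direction of a call reversed among them in the alternatives tried, and other called genes were not examined for this. The causes were not tested. With 3 or 4 mice a group and no replicate cultures, the precision is that of the spread between mice.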
